A study of Homo sapiens and Mus musculus with 33 samples.

Results

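The 46 genes described here encode the machinery that licenses, starts and carries out DNA replication, together with the enzymes that supply deoxynucleotides. They were chosen as a named list of genes, from what their products do and not from a measured value, and each was matched by its symbol. All 46 were found in the HCT116 RNA-seq table, which lists 35805 genes, and all 46 in the mouse colon table, which lists 25965. The peaks that lay inside these genes or within 2 kb of them numbered 64 of 40266 in HCT116 cells, 40 of 30338 for H3K18cr in mouse colon and 63 of 27035 for H3K4me3 in mouse colon.

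The study mapped crotonylation of lysine 18 of histone H3 (H3K18cr), a short-chain acyl mark, in mouse colon epithelium, and asked how inhibition of class I histone deacetylases changes it in HCT116 cells, a human colon carcinoma line that is a single established line. HCT116 cells received 5 µM MS275 (entinostat, an inhibitor of class I histone deacetylases) or the solvent DMSO for 18 h. RNA-seq was done on 4 libraries per treatment, and ChIP-seq for H3K18cr and for H3K18ac (acetylation of the same residue) on 3 libraries per mark and treatment, with 1 input library (chromatin without antibody) per treatment. The study's methods give 2 replicates for H3K18cr in HCT116 cells where the labels, and its own test of these marks, give 3. All 3 libraries were used here, and whether they come from independent cultures is not stated. Colon epithelium of untreated C57BL/6 mice, which were male, was assayed by RNA-seq (3 mice), by H3K18cr ChIP-seq (2 libraries, each with its input) and by H3K4me3 ChIP-seq (3 libraries, 1 input). For ChIP of colon the study's methods describe chromatin pooled from several colons and elsewhere it names 2 mice for H3K18cr, so the 2 libraries may share a pool. H3K4me3 is the methylation mark of active gene starts.

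Replication is prepared in G1, when the origin recognition complex (ORC1 to ORC6), CDC6 and CDT1 load the ring of MCM2 to MCM7 onto DNA. In S phase CDC45 and the GINS complex turn that ring into the moving helicase, and polymerases, the clamp PCNA and its loader RFC copy both strands. Ribonucleotide reductase (RRM1 and RRM2) and thymidylate synthase (TYMS) supply the building blocks. Many of these genes are transcribed in a burst before S phase under E2F factors, and in the colon this happens in the dividing cells of the crypts, while most cells at the surface no longer divide.

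The promoters of 40 of the 46 genes were found in the RefSeq promoter table of GRCh38.p14, and the window from 250 bases before to 30 bases after the most upstream start of each was searched. An E2F-type sequence (TTTCCCGC, TTTGGCGC, TTTCGCGC or TTTGCCGC, on either strand) was present in 18 of the 40 windows (45%), against 668 of the 15843 protein-coding promoters of the same length (4.22%). The CCAAT box (CCAAT, either strand) was present in 24 of the 40 (60%) and in 35.8% of all. The sequence TTTGAA, the core of the cell cycle homology region of genes that peak later in the cycle, was present in 1 of the 40 (2.5%), that of RRM1, and in 11.8% of all. A match of these letters is a description of the window and not evidence of binding. The windows of 4 genes are printed as examples, because these genes are named in the results. Whether their letters bear on those results was not tested. FEN1 and MCM7 had the 2 deepest falls in H3K18cr, MCM2 was among the genes whose RNA fell in every replicate pair, and CDC6 had relatively fewer reads of both marks with MS275 without a called fall in RNA. E2F-type and CCAAT sequences are in capitals, read 5′ to 3′ on the gene's strand.
FEN1 (chr11:61792661-61792940, plus strand): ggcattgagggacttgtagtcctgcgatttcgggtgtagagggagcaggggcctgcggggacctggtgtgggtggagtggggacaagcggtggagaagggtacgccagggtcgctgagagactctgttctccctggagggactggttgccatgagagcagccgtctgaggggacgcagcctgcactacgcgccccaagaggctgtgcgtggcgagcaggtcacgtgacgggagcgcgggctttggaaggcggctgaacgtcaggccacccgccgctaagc
MCM7 (chr7:100101368-100101647, minus strand): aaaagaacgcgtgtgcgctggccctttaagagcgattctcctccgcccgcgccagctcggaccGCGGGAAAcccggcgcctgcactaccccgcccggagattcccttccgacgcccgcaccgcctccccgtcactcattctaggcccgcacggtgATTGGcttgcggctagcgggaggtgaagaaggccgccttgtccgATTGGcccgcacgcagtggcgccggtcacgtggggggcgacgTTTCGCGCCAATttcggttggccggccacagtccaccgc
CDC6 (chr17:40287629-40287908, plus strand): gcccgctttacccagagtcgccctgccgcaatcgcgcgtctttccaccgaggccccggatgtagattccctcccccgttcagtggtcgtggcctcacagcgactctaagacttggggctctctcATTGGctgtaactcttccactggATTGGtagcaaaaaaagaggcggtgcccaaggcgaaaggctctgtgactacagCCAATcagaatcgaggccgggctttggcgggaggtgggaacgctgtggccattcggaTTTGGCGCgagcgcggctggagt
MCM2 (chr3:127598161-127598440, plus strand): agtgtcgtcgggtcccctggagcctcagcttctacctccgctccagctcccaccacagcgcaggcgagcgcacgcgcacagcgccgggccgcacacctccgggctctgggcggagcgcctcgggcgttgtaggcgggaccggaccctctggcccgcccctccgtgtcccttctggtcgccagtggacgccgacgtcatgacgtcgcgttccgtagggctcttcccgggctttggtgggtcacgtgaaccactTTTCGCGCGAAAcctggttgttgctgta
The MCM7 window held an E2F-type sequence at -187 and another at -9, counted from the start, the second overlapping a CCAAT box. The CDC6 window held 3 CCAAT boxes and an E2F-type sequence at 8 bases into the transcript. The MCM2 window held an E2F-type sequence on each strand, overlapping each other, at 3 and 7 bases into the transcript and no CCAAT box. The FEN1 window held neither motif. Of the 40 windows, 38 overlapped the peak at the start of the same gene in HCT116 cells, and those of PCNA and PRIM2 did not.

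The RNA-seq libraries held 35608533 to 53415604 counts in HCT116 and 8166406 to 10707901 in colon. The HCT116 ChIP libraries held 2236551 to 5730094 reads in peaks, and the colon H3K18cr libraries 2190272 and 3451663 and the H3K4me3 libraries 1105419 to 2711830. In colon every one of the 8 epithelial markers was above 1 CPM (a count scaled to a common library total). The 3 goblet markers summed to 8023 to 13702 CPM, the 5 stromal markers to 22.3 to 26.7 CPM and the 5 immune markers to 24.5 to 39.7 CPM. In HCT116 cells 6 of the 8 epithelial markers were above 1 CPM, and the goblet and colonocyte lists summed to at most 3.75 CPM in any library. The 5 stromal markers summed to 11.4 to 13.6 CPM with DMSO and 21.3 to 22.8 with MS275, and the 4 cycling markers to 990 to 1379 and 1092 to 1671. The part of these lists in the RNA results was not tested.

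Replication genes stood high in HCT116 cells and in the middle of the range in colon epithelium. RNA levels were compared between genes as CPM per kb of exon, and each gene was ranked among the protein-coding genes with a count (14697 in HCT116, 13787 in colon). The median rank of the 46 genes was the 85.6th percentile in DMSO-treated HCT116 cells and the 63.7th in colon. The highest levels in HCT116 were those of PCNA, the sliding clamp, with 245 ± 69.3 CPM per kb (SD, n = 4), MCM7, a helicase subunit, with 125 ± 15.0, and TYMS with 119 ± 17.4. The ranges of MCM7 and TYMS overlapped, but MCM7 was above TYMS in 4 of 4 libraries. The lowest were those of POLA2, the second subunit of polymerase alpha, with 2.99 ± 0.83, GINS3, a subunit of the helicase, with 4.42 ± 1.72, and POLD3, an accessory subunit of polymerase delta, with 4.43 ± 0.81. POLA2 was below GINS3 and below POLD3 in 4 of 4 libraries, while POLD3 was above GINS3 in 2 of 4.

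In colon the highest levels were those of Pold2, an accessory subunit of polymerase delta, with 53.3 ± 4.70 CPM per kb (SD, n = 3), Pcna with 45.3 ± 4.03 and Mcm5 with 30.7 ± 2.56. The lowest were those of Gins3 with 1.75 ± 0.09, Clspn, which relays checkpoint signals at the fork, with 1.80 ± 0.24, and Pole, the leading strand polymerase, with 1.90 ± 0.23. Their ranges overlapped. Clspn and Pole were each above Gins3 in 2 of 3 mice, and Pole was above Clspn in 3 of 3. Exon length enters these orders too. Without division by length the means were 101 CPM for Pold2 and 123 for Mcm5, and 4.74 for Gins3, 12.9 for Clspn and 21.2 for Pole. The ranks in the 2 sample types had a Spearman correlation of 0.68 across the 46 genes, which differ in species and are not independent replicates. Of the 46 genes, 42 ranked lower in colon. The widest gaps were those of CDC6 (89.5th percentile in HCT116, 40.4th in colon), TIMELESS, a fork protection factor (84.1 and 38.4), and MCM10, which helps to activate the helicase (77.0 and 38.2). GINS4, POLD3, LIG1 (the ligase that seals Okazaki fragments) and POLD2 ranked 5.4 to 10.8 percentile points higher in colon. Their exon lengths in human and mouse were 5.4 and 1.3 kb, 5.5 and 4.6 kb, 11.3 and 4.3 kb, and 8.0 and 1.9 kb. Mean CPM without division by length was higher in HCT116 for GINS4 (30.2 against 17.5), LIG1 (92.7 against 67.2) and POLD2 (194 against 101). It was higher in colon for POLD3 (45.0 against 24.4). The part of exon length in these ranks was not tested. In bulk tissue, fewer dividing cells and less RNA per cell cannot be told apart, and species, tissue and table differ together here, so the gap was not tested. The 4 cycling markers summed to 270 to 388 CPM in colon, below the 990 to 1379 CPM of HCT116 cells with DMSO, and their part in the gap was not tested.

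**Figure D1:**
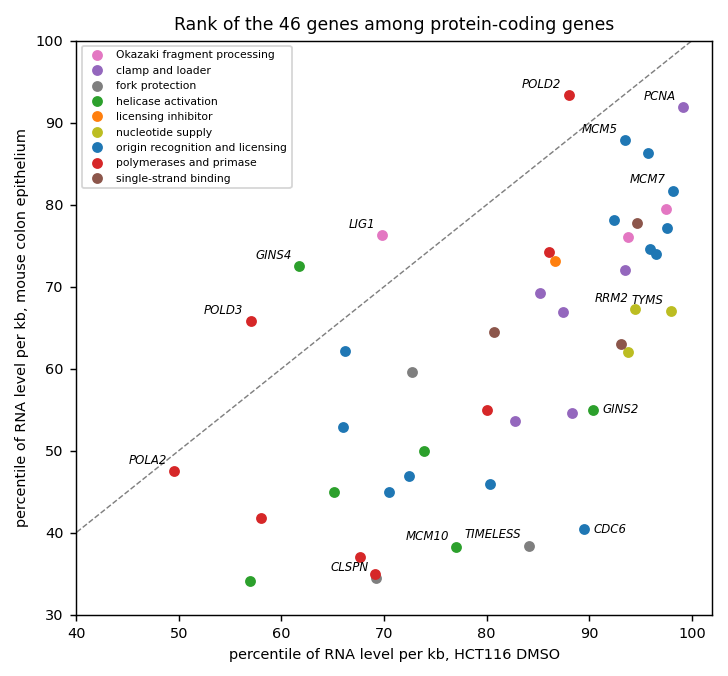
Percentile of each gene's RNA level per kb among protein-coding genes, in HCT116 cells with DMSO (x axis, mean of 4 libraries) and in mouse colon epithelium (y axis, mean of 3 mice); colours give the role of each gene. Most points lie below the dashed line of equal rank, and POLD2, LIG1, POLD3 and GINS4 lie above it.

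With MS275 the log2 RNA change was below 0 for most of the replication genes, and few of these changes passed a test. In edgeR's quasi-likelihood test without pairing, none (0) of the 46 genes passed an adjusted p of 0.05, and 1 of the 14961 genes tested did (0.00668%). At an unadjusted p under 0.05, 2 of the 46 passed (TYMS and MCM5), against 6.60% of all genes, and DESeq2 also called 0 of the 46, with 0.645% of all genes called. The median log2 change of the 46 was -0.16, against 0.01 over all genes tested, and 37 of the 46 were below 0, against 48.7% of all genes. The values of the 2 treatments overlapped for all 46 genes, where 1.89% of all genes lay wholly lower with MS275 and 3.48% wholly higher. The deviations of libraries with the same replicate number moved together in this experiment, so a paired fit, in which that number enters as a block, is given as well. There 11 genes fell and 1 rose, while 34 did not pass. Over all genes, 6.55% fell and 7.83% rose in that fit. In 21 of the 46 genes the MS275 library was the lower one in 4 of 4 pairs, against 17.5% of all genes. The summed level of the 46 genes was 7762, 5858, 6406 and 5437 CPM in the DMSO libraries 1 to 4 and 7002, 5065, 5830 and 4724 CPM in the MS275 libraries, lower in each pair although the groups overlap.

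The number of calls depended on the pairs. In the fit with the block it was 7 of the 46 without pair 1, 6 without pair 2, 16 without pair 3 and 6 without pair 4, against 6.43%, 6.54%, 17.2% and 6.87% of all genes called in either direction. Without the block, the median log2 change moved to -0.04 when DMSO library 1 was left out, to -0.32 without MS275 library 1 and to -0.09 without MS275 library 4. Library 1 was the highest of its group for 34 of the 46 genes with DMSO, for 32 with MS275 and for 28 in both. For CLSPN, a gene chosen after its values were seen, the DMSO libraries gave 90.2, 42.4, 139 and 42.7 CPM and the MS275 libraries 88.0, 40.2, 131 and 41.4. Its level differed far more between replicate numbers than within them.

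Licensing genes, the largest role, gave the largest number of falls but not the largest share, as 2 of 3 genes of nucleotide supply fell. Of the 13 genes of origin recognition and licensing, 5 fell in the fit with the block, 8 did not pass and 12 were below 0. MCM5 had 324, 284, 350 and 259 CPM with DMSO and 252, 196, 283 and 180 with MS275. Each MS275 library was below its partner, and the groups overlapped. Its log2 change was -0.43 ± 0.06 (SE, adjusted p = 0.00139, edgeR with block) and -0.42 ± 0.18 (adjusted p = 0.728) without the block. MCM2 had 390, 284, 256 and 271 CPM with DMSO and 305, 217, 201 and 204 with MS275, lower in 4 of 4 pairs by nearly the same amount, and changed by -0.38 ± 0.06 (adjusted p = 0.0017, edgeR with block). MCM7 went from 720, 601, 657 and 523 CPM to 598, 463, 533 and 439, a log2 change of -0.30 ± 0.05 (adjusted p = 0.00375, edgeR with block). CDT1, which brings the MCM ring to the origin, had 202, 179, 303 and 148 CPM with DMSO and 177, 120, 255 and 116 with MS275, and changed by -0.34 ± 0.07 (adjusted p = 0.0101, edgeR with block). MCM3 was the other licensing gene that fell. Without the block the adjusted p of MCM2, MCM7 and CDT1 were 0.813, 0.835 and 0.921 in edgeR.

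CDC6, which recruits the MCM ring together with CDT1, did not follow. It had 200, 134, 148 and 110 CPM with DMSO and 185, 114, 186 and 96.4 with MS275, lower in pairs 1, 2 and 4 and higher in pair 3, with a log2 change of -0.05 ± 0.09 (adjusted p = 0.761, edgeR with block). GMNN encodes geminin, the inhibitor that holds CDT1 after origins have fired. Its levels were 75.9, 48.2, 41.5 and 48.7 CPM with DMSO and 73.8, 54.7, 44.1 and 43.2 with MS275, lower in 2 of the 4 pairs, with a change of 0.01 ± 0.09 (adjusted p = 0.949, edgeR with block). The direction of CDC6 and GMNN, and that of RRM2 and RNASEH2A below, turned when single libraries were left out.

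Of the 6 genes of helicase activation, CDC45 fell and 5 did not pass. CDC45, the factor that completes the active helicase, had 45.5, 23.7, 30.7 and 21.5 CPM with DMSO and 35, 11.4, 27.8 and 14.9 with MS275. The fall was in 4 of 4 pairs and was deepest in pair 2 (-1.05 on the log2 scale), and the fitted change was -0.52 ± 0.14 (adjusted p = 0.0313, edgeR with block). GINS4 was higher in 4 of 4 pairs, with a log2 change of 0.34 ± 0.11 that did not pass (adjusted p = 0.0543, edgeR with block). Among the 6 genes of the clamp and its loader, PCNA and RFC2 fell. PCNA had 483, 321, 305 and 269 CPM with DMSO and 385, 287, 225 and 226 with MS275, and changed by -0.29 ± 0.06 (adjusted p = 0.00949, edgeR with block). RFC2, a loader subunit, changed by -0.29 ± 0.08 (adjusted p = 0.037, edgeR with block).

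The 8 genes of the polymerases and primase held the only rise and no fall in the fit with the block. PRIM2 encodes the large subunit of the primase, which lays down the first RNA primers. It had 53.3, 37.5, 29.4 and 46.3 CPM with DMSO and 65.7, 50.0, 42.7 and 54.6 with MS275. Every MS275 library was above its partner, and the log2 change was 0.37 ± 0.09 (adjusted p = 0.0204, edgeR with block; adjusted p = 0.86 without). Of the 3 genes of Okazaki fragment processing, FEN1, the nuclease that trims the fragments, fell by 0.24 ± 0.06 on the log2 scale (adjusted p = 0.0221, edgeR with block). RNASEH2A, the catalytic subunit of the nuclease that removes ribonucleotides from DNA, had 106, 82.3, 105 and 72.7 CPM with DMSO and 82.3, 81.3, 116 and 62.9 with MS275, and did not pass (adjusted p = 0.453, edgeR with block). None of the 3 genes of single-strand binding and the 3 of fork protection passed (0 and 0).

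Among the 3 genes of nucleotide supply, TYMS and RRM1 fell and RRM2 did not pass. TYMS makes thymidylate. It had 340, 283, 312 and 228 CPM with DMSO and 270, 186, 221 and 177 with MS275, lower in 4 of 4 pairs, with a log2 change of -0.45 ± 0.07 (adjusted p = 0.00122, edgeR with block; adjusted p = 0.696 without). TYMS is 1 of 10 of the 46 genes that overlap a protein-coding gene on the other strand (here ENOSF1). MCM7 (AP4M1) and RNASEH2A (HOOK2) above are also among the 10. The counting is not stated to have used strand, so reads of such a pair may not have been separated, although the library kit was directional. RRM1, the large subunit of ribonucleotide reductase, had 250, 154, 151 and 180 CPM with DMSO and 213, 145, 118 and 154 with MS275, and changed by -0.23 ± 0.07 (adjusted p = 0.0424, edgeR with block). RRM2, the small subunit, had 632, 413, 380 and 359 CPM with DMSO and 676, 384, 348 and 344 with MS275. It was higher in pair 1 and lower in the other pairs, and its change was -0.05 ± 0.06 (adjusted p = 0.648, edgeR with block).

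**Figure D2:**
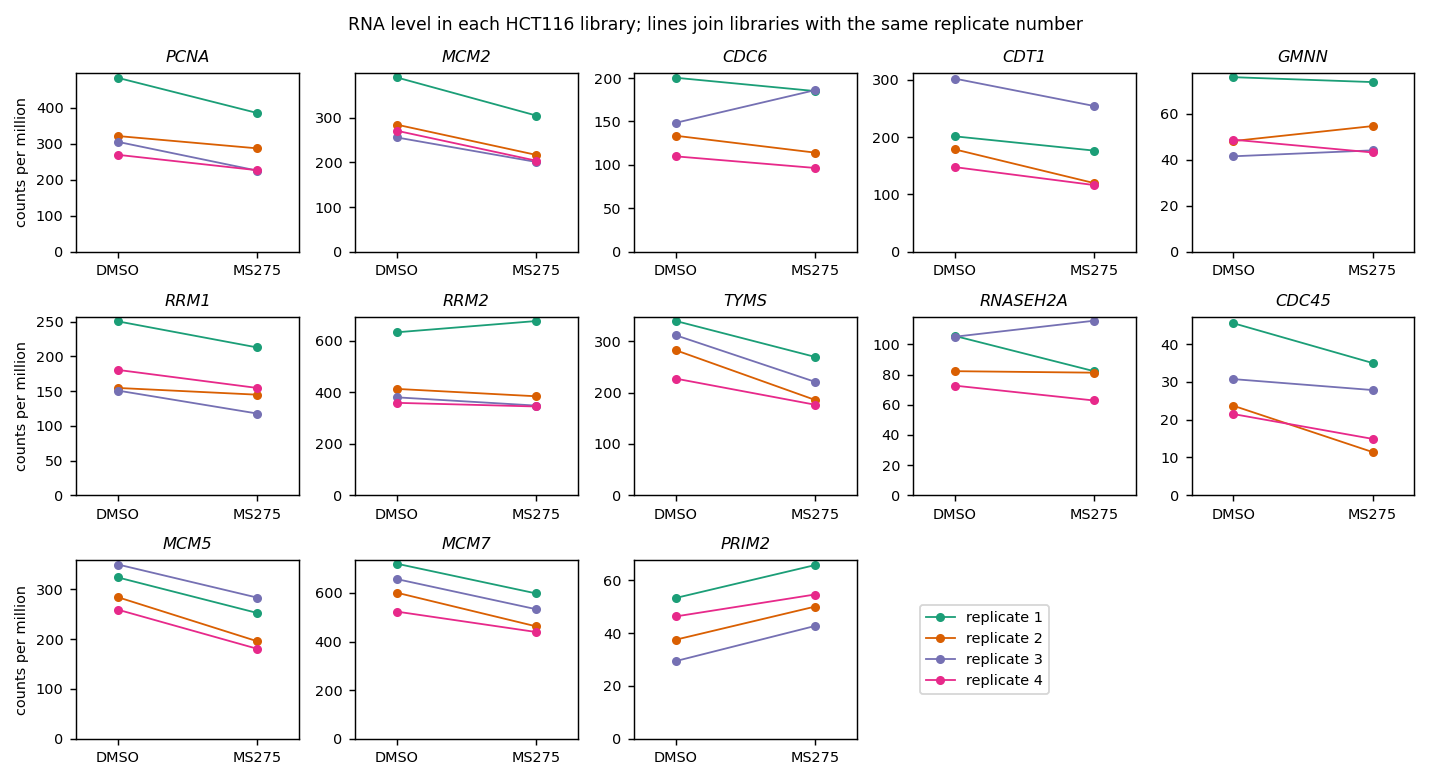
RNA level in CPM (y axis, from 0) of 13 genes in each HCT116 library with DMSO or MS275 (x axis); lines join libraries with the same replicate number. The lines of TYMS, MCM2, MCM5, MCM7 and PCNA slope down in 4 of 4 pairs and those of PRIM2 slope up, while the groups overlap.

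**Figure D3:**
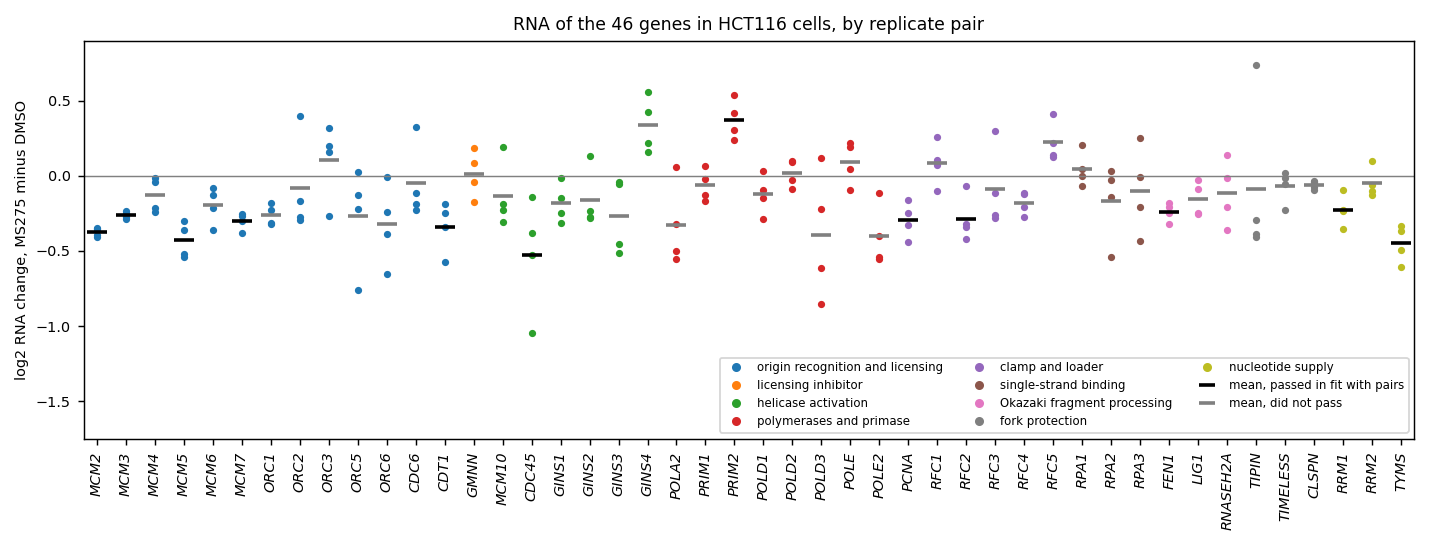
Log2 RNA change of each of the 46 genes in the 4 replicate pairs (points, MS275 minus DMSO), grouped by role; bars are the means of the pairs, black where the gene passed in the fit with the replicate block. Of the black bars, 11 lie below 0 and that of PRIM2 lies above.

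Other genes of the same pathways, from lists written with the roles of their products in mind, gave mixed counts. Over all genes tested, 6.55% fell and 7.83% rose in the fit with the block, and small counts near these shares say little about a list. Of 28 further replication genes, 2 fell (POLE3, a histone-fold subunit of polymerase epsilon, and MCMBP, which binds MCM proteins) and 1 rose (TOP2A, a topoisomerase that untangles DNA) in the fit with the block, and their median log2 change without it was -0.02. Of 16 further genes of nucleotide supply, 5 fell (DTYMK, UMPS, DUT, NME1 and GART) and 0 rose, with a median of -0.15. DTYMK, which phosphorylates thymidylate, had the deepest fall of these, -0.48 ± 0.09 (adjusted p = 0.004, edgeR with block). Of 20 genes that control entry into S phase, 4 fell (CDK4, TFDP1, E2F4 and CDKN1B) and 2 rose (CDKN1A and CCND3), with a median of -0.08. CDKN1A encodes p21, an inhibitor of cyclin-dependent kinases, and changed by 0.28 ± 0.07 (adjusted p = 0.017, edgeR with block). CDK4, the kinase of cyclin D, changed by -0.33 ± 0.06 (adjusted p = 0.005, edgeR with block). Without the block 0 genes of these 3 lists passed in edgeR, against 0.00668% of all genes.

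All 46 genes had a peak at their transcription start site (TSS, within 1 kb) in HCT116 cells, where 78.3% of the protein-coding genes with a count had one, and 97.8% of those within the same range of levels. A single deposited list of peaks served both marks and both treatments, and the values are reads scaled to the largest library. The TSS peaks had a median width of 2550 bp. At 14 of the 46 starts the peak also covered the start of another gene, as at MCM7 (AP4M1), FEN1 (TMEM258), MCM2 (TPRA1) and CDC45 (UFD1), and the reads cannot be divided between the neighbours.

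With MS275 a smaller share of the H3K18cr reads fell on most replication genes. The values are reads scaled to a common library total, so each change is relative to the rest of that library's reads. The total amount of the mark was not measured by them, and from them alone a fall at these peaks and a rise elsewhere cannot be told apart. By western blot the study found more histone crotonylation in HCT116 cells with MS275. Its ChIP-qPCR (PCR on the precipitated DNA) found more H3K18cr over the promoters and repeats tested after 18 h. A peak said to fall here had fewer scaled reads, which is not a measured loss of the mark. Of the 46 TSS peaks, 43 fell and 0 rose (adjusted p under 0.05, limma), against 55.1% of all peaks within 1 kb of a TSS that fell. The median log2 change was -0.79, against -0.54 at all TSS peaks. The 3 TSS peaks that did not pass were those of GINS2, ORC5 and RPA1. In 43 of the 46 peaks every MS275 library lay below every DMSO library, against 61.9% of all TSS peaks. The median DMSO level at the 46 peaks was 167 scaled reads and the median MS275 level 97.6, with medians of 151 and 101 over all TSS peaks. When only TSS peaks with a DMSO level within the interquartile range of these genes were taken (142 to 229 scaled reads), 21 of 22 peaks of replication genes fell, with a median of -0.75, against 70.9% and -0.62 for the 3315 TSS peaks in that range. With all 64 peaks of these genes counted, 47 fell, 0 rose and 17 did not pass, against 23.0% of all peaks that fell. Of the 13 peaks over 1 kb from the gene's own start, 2 fell. Both were within 1 kb of another gene's start, APRT beside CDT1 and TMEM230 beside PCNA. Of all peaks over 1 kb from any TSS, 7.91% fell, so the 2 sets are not alike. With the replicate number as a block the same 43 TSS peaks fell (60.9% of all TSS peaks), and 49 of the 64 peaks (26.1% of all).

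The deepest falls in H3K18cr were at FEN1, MCM7 and RFC2. The FEN1 peak (GRCh38 chr11:61791001-61794450) had 372, 384 and 452 scaled reads with DMSO and 136, 152 and 199 with MS275, a log2 change of -1.32 ± 0.17 (adjusted p = 1.36e-05, limma). The MCM7 peak (chr7:100099501-100103250) had 478, 446 and 413 scaled reads with DMSO and 197, 163 and 246 with MS275, a log2 change of -1.16 ± 0.16 (adjusted p = 2.65e-05, limma). In both peaks the groups did not overlap, and the input libraries held 62.3 to 79.5 scaled reads, below every MS275 library. The RFC2 peak (chr7:74253151-74256150) went from 224, 227 and 235 to 117, 93.5 and 101, a change of -1.14 ± 0.17 (adjusted p = 3.06e-05, limma).

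The peaks of the genes followed above for RNA also fell. At PCNA (chr20:5118001-5121150) H3K18cr went from 273, 263 and 195 scaled reads to 137, 93.5 and 147, a log2 change of -0.96 ± 0.18 (adjusted p = 0.000277, limma). At TYMS (chr18:655951-660150) it went from 434, 429 and 263 to 215, 198 and 174 (-0.91 ± 0.18, adjusted p = 0.000329, limma). The groups did not overlap at either gene. At CDC6 (chr17:40287601-40289550), whose RNA change did not pass the test, H3K18cr went from 115, 116 and 118 to 69.7, 58.1 and 51.9 (-0.97 ± 0.19, adjusted p = 0.000328, limma). At GMNN the change was -0.998 ± 0.20 (adjusted p = 0.000341, limma), at RRM2 -0.92 ± 0.17 (adjusted p = 0.000232, limma) and at RRM1 -0.94 ± 0.18 (adjusted p = 0.000318, limma). H3K18cr also fell at MCM5 (-1.08 ± 0.18, adjusted p = 7.15e-05, limma) and CDC45 (-0.88 ± 0.16, adjusted p = 0.000195, limma), and at RNASEH2A (-0.70 ± 0.20, adjusted p = 0.00912, limma). MCM2 had one of the smaller falls, -0.59 ± 0.17 (adjusted p = 0.0113, limma), and CDT1, with the widest peak of the group at 7800 bp, changed by -0.66 ± 0.16 (adjusted p = 0.00189, limma). At PRIM2, whose RNA rose, H3K18cr fell by 0.59 ± 0.19 on the log2 scale (adjusted p = 0.0234, limma).

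GINS2 stood apart. Its TSS peak (chr16:85686601-85691400) had 217, 222 and 136 scaled reads with DMSO and 187, 173 and 163 with MS275, and the log2 change was -0.11 ± 0.18 (adjusted p = 0.765, limma). After TMM, described below, it was 0.13 (adjusted p = 0.6, limma), so its direction turned with the scaling. The groups overlapped, and the input libraries at this 4800 bp peak held 124 and 140 scaled reads, so that the DMSO library 3 was close to the input. The 3 highest log2 changes of H3K18cr over the 64 peaks were at a peak 1520 bp from the MCM3 start (0.49 ± 0.26, adjusted p = 0.194, limma), at a peak 106449 bp from the RFC3 start (0.17 ± 0.25, adjusted p = 0.732) and at a 450 bp peak beside that of CDC6 (0.10 ± 0.37, adjusted p = 0.908). None of these passed in this fit, and the MCM3 peak held only 21.7 to 56.7 scaled reads in any library.

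In the fit without a block, H3K18ac fell at 41 of those 43 starts and at none of the other 3. Of the 46 TSS peaks, 41 fell and 0 rose (limma), against 43.2% of all TSS peaks that fell. With the replicate number as a block 12 of these 41 fell and 34 of the 46 did not pass, against 5.41% of all TSS peaks and 2.01% of all peaks that fell. The study tested these marks with a paired test, while deviations of same-numbered H3K18ac libraries did not move together. The 12 were CDC6, FEN1, GINS4, GMNN, MCM6, MCM7, POLA2, POLD2, POLD3, POLE, POLE2 and RPA3. In the fit without the block the median log2 change was -1.03 against -0.60. The groups did not overlap in 32 of the 46, against 50.0% of all TSS peaks. Over all 64 peaks 46 fell, 0 rose and 18 did not pass, against 16.3% of all peaks that fell. Of the 13 peaks over 1 kb from the gene's own start, some of them at the start of another gene, 2 fell. Of all peaks over 1 kb from any TSS, 3.70% fell, so these 2 sets are not alike either. Among TSS peaks with a DMSO level of 172 to 280 scaled reads, 21 of 22 peaks of replication genes fell, with a median of -0.98, against 60.5% and -0.75 for the 3050 TSS peaks in that range. The TSS peaks that did not pass were those of GINS2, GINS3, ORC5, PRIM2 and RPA1.

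The deepest falls in H3K18ac were at POLD2, MCM7 and CDC6. The POLD2 peak (chr7:44122351-44124600) had 186, 235 and 333 scaled reads with DMSO and 109, 70.9 and 87.0 with MS275, a log2 change of -1.48 ± 0.25 (adjusted p = 8.04e-06, limma). MCM7 went from 474, 596 and 802 to 280, 193 and 235 (-1.39 ± 0.25, adjusted p = 1.96e-05, limma). At both genes the groups did not overlap. CDC6 went from 119, 116 and 286 to 96.1, 54.4 and 51.3 (-1.29 ± 0.25, adjusted p = 5.93e-05, limma), where DMSO library 3 was far above the other two. PCNA went from 205, 284 and 467 to 196, 139 and 113 (-1.05 ± 0.25, adjusted p = 0.00111, limma), and TYMS from 255, 344 and 581 to 257, 134 and 172 (-1.04 ± 0.25, adjusted p = 0.00125, limma). The groups were apart at PCNA and overlapped at TYMS, where MS275 library 1 was above DMSO library 1. With the block, POLD2, MCM7 and CDC6 passed (adjusted p = 0.0109, 0.0301 and 0.0219, limma), and PCNA and TYMS did not (0.0782 and 0.0861). The 3 highest changes were at peaks far from the start of RFC3 (0.08 ± 0.29 and -0.06 ± 0.27) and 1888 bp from that of RFC1 (-0.03 ± 0.25), and none passed (limma, adjusted p of 0.919, 0.937 and 0.965).

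The H3K18ac libraries were less even than those of H3K18cr. The median log2 change of the 46 TSS peaks between same-numbered libraries was -0.22, -1.10 and -1.67 for H3K18ac and -0.86, -1.001 and -0.54 for H3K18cr. The share of the reads in peaks that fell on the 46 TSS peaks was 0.192%, 0.209% and 0.242% with DMSO and 0.163%, 0.134% and 0.140% with MS275 for H3K18ac. For H3K18cr it was 0.173%, 0.178% and 0.170% with DMSO and 0.135%, 0.127% and 0.129% with MS275, and for the inputs 0.126% and 0.118%. In both marks the share was lower in all MS275 libraries than in any DMSO library, while both treatments were above the input. Leaving out MS275 library 2 or 3 lowered the H3K18ac calls from 46 of 64 to 16 and 22, with 3.59% and 4.71% of all peaks called in either direction. The scaling matters as well. TMM over all peaks, which sets the bulk of the peaks level, shifted the median of all H3K18cr peaks from -0.20 to 0.04. For H3K18ac that median went from -0.19 to 0.06. Relative to that shift 31 of the 64 peaks of replication genes fell in H3K18cr and 46 of the 64 in H3K18ac (limma after TMM), against 11.1% and 16.6% of all peaks, with TSS medians of -0.54 and -0.77. Of the 46 TSS peaks, 28 and 41 fell after TMM, against 29.6% and 43.9% of all TSS peaks. The falls at MCM2, PRIM2 and RNASEH2A in H3K18cr did not pass there (adjusted p = 0.132, 0.189 and 0.112, limma after TMM).

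**Figure D4:**
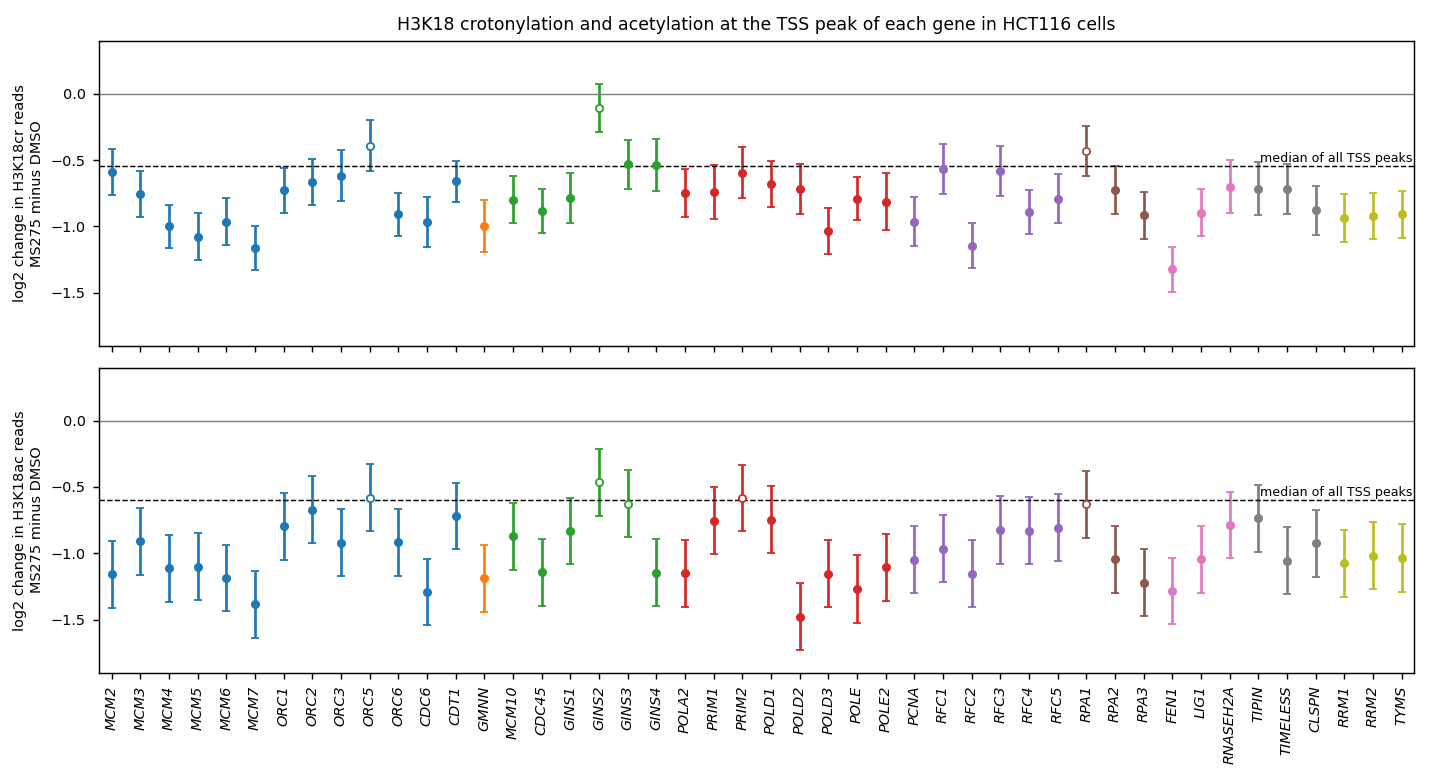
Log2 change of scaled reads (MS275 minus DMSO, estimate and SE from limma, 3 libraries per group) in H3K18cr (top) and H3K18ac (bottom) at the TSS peak of each gene, coloured by role; filled points passed an adjusted p of 0.05 and the dashed line is the median of all TSS peaks. Of the 46 points, 41 lie below the dashed line for H3K18cr and 43 for H3K18ac, and GINS2 is the highest in both.

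Falls in the marks, in the fit without the block, were spread over all roles. In H3K18cr the median log2 change at TSS peaks was -0.92 for nucleotide supply (3 of 3 fell), -0.90 for Okazaki fragment processing (3 of 3), -0.84 for the clamp and loader (6 of 6), -0.76 for origin recognition and licensing (12 of 13), -0.75 for polymerases and primase (8 of 8) and -0.66 for helicase activation (5 of 6). In H3K18ac the highest and lowest of these were helicase activation with -0.85 (4 of 6 fell) and polymerases and primase with -1.13 (7 of 8).

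No difference in response between the 2 marks passed the test. No peak among the 40266 (0) had a mark by treatment term that passed in limma, and at an unadjusted p under 0.05 the term passed in 739 peaks (1.84%), of which 1 of the 64 belonged to these genes. The difference of the log2 changes (H3K18cr minus H3K18ac) had a median of 0.13 at the 46 TSS peaks and of 0.06 at all TSS peaks. The changes of both marks had a Pearson correlation of 0.68 across the 46 TSS peaks. In DMSO alone the H3K18cr level minus the H3K18ac level had a median of -0.30 (log2) at the 46 TSS peaks and of -0.06 at all TSS peaks, and was above 0 at 2 of the 46, but again no peak passed (0 of 40266, with 2221 or 5.52% at an unadjusted p under 0.05 and 5 of the 64 among them, limma).

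RNA and marks were set side by side. Each of the 11 genes whose RNA fell in the fit with the block had a TSS peak that fell in H3K18cr and H3K18ac without it. With the block in the marks as well, 11 of the 11 had one in H3K18cr and 2 in H3K18ac. After TMM with the block, a setting chosen after seeing the data, 41 of the 46 TSS peaks fell in H3K18ac (41.4% of all TSS peaks). For 32 further genes the H3K18cr peak fell without a fall in RNA by that test, and for 30 the H3K18ac peak did. Since 43 and 41 of the 46 peaks fell, this overlap says little about the 11. Across the 46 genes the log2 RNA change had a Pearson correlation of 0.32 with the H3K18cr change at the TSS and of 0.14 with the H3K18ac change. Genes that share a promoter or pathway are not independent, and these values describe the list. An E2F-type sequence was in 6 of 10 promoter windows of the genes whose RNA fell and in 12 of the 30 others.

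In mouse colon epithelium the starts of these genes carried H3K4me3 throughout, but H3K18cr only in part. All 46 had an H3K4me3 peak within 1 kb of a TSS, where 84.7% of the protein-coding genes with a count had one, and 95.1% of those within the same range of RNA levels. An H3K18cr TSS peak was listed for 30 of the 46 (65.2%), against 71.6% of the protein-coding genes with a count and 90.1% of those within that range. Of the 7753 protein-coding genes within the range of RNA levels of the 46 and with an H3K4me3 TSS peak, 92.5% had one. Among the 1696 such genes whose H3K4me3 peak lay within the interquartile range of these genes (140 to 214 scaled reads), 87.8% had an H3K18cr TSS peak, against 13 of 22 replication genes. There was 1 list of peaks for both libraries and the table holds no reads outside peaks, so a missing peak says that the signal there did not reach the authors' threshold, and not that the mark was absent.

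Of the 10 subunits of the MCM ring and of GINS, a grouping made after the values were seen, 8 had no H3K18cr TSS peak, and Mcm4 and Gins1 had one. Mcm2, Mcm3, Mcm5, Mcm6 and Mcm7 had no H3K18cr peak inside the gene or within 2 kb of it. Mcm4 had a 750 bp peak 251 bp from its start, on a stretch that it shares with Prkdc. Gins2, Gins3 and Gins4 had none, nor did Pold1, Prim1, Rfc5, Rrm1 and Clspn. Mcm10, Orc1 and Rpa2 had a peak only away from the start, at 23644, 13797 and 5323 bp. By role, a TSS peak was listed for 7 of 13 genes of origin recognition and licensing, 2 of 6 of helicase activation, 5 of 6 of the clamp and loader, 6 of 8 of polymerases and primase, 3 of 3 of Okazaki fragment processing, 2 of 3 each of single-strand binding, nucleotide supply and fork protection, and for Gmnn.

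The genes without an H3K18cr TSS peak covered much of the range of RNA levels. Their median level was 8.50 CPM per kb (1.75 to 30.7), and that of the genes with a peak 9.50 (1.90 to 53.3). Mcm5 had 27.8, 32.3 and 32.0 CPM per kb in the 3 mice and no peak, while Pole had 1.93, 2.12 and 1.65 and a 1950 bp peak over its start, which it shares with Pxmp2. Of the 30 TSS peaks, 5 lay beside the start, at 11 to 841 bp, and did not cover it. The H3K4me3 TSS peaks of the 16 genes without an H3K18cr TSS peak held a median of 167 scaled reads (49.6 to 237), and those of the 30 genes with one 188 (92.3 to 484). The H3K4me3 peak of Mcm5 (GRCm38 chr8:75108751-75110550) had 101, 190 and 268 scaled reads in the 3 libraries and 30 in the input. A start shared with another gene was seen for 2 of the 16 without and 10 of the 30 with an H3K18cr peak. An E2F-type sequence in the human promoter was found for 7 of 13 and 11 of 27 of them. These differences were not tested.

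**Figure D5:**
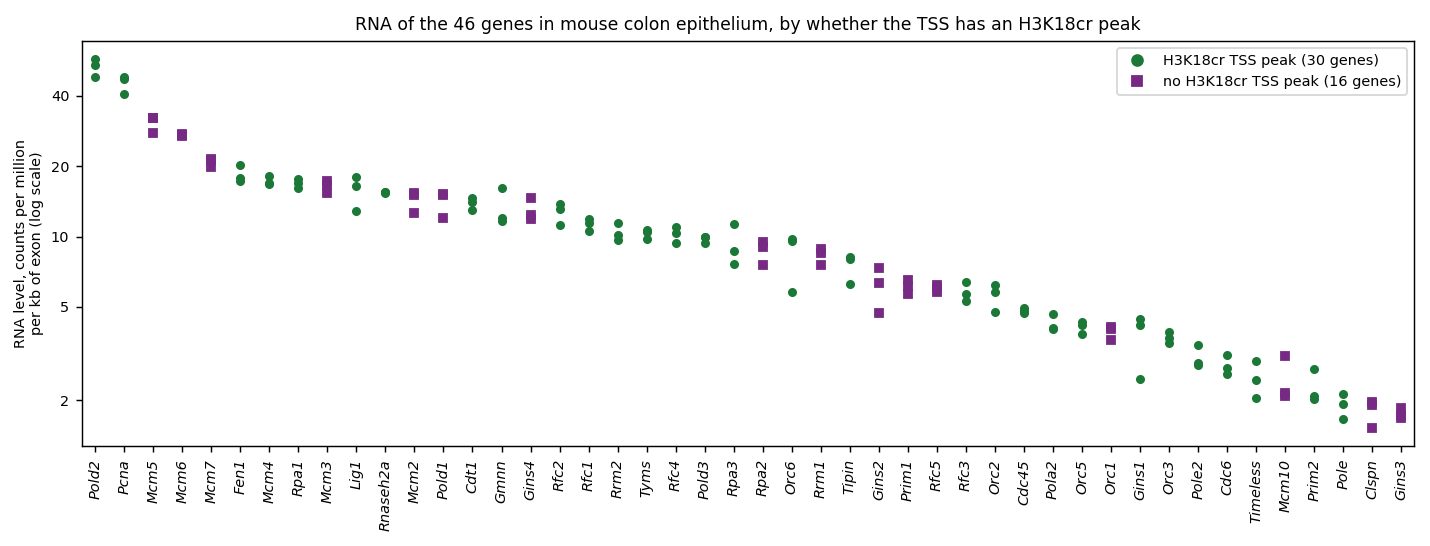
RNA level of the 46 genes in colon epithelium (y axis, CPM per kb of exon, log scale), 1 point per mouse, ordered by mean; green circles mark genes with an H3K18cr TSS peak and purple squares genes without one. The 16 genes without a peak are spread from Mcm5, near the top with 27.8 to 32.3, to Gins3 at the bottom with 1.67 to 1.85.

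Where a peak was listed, its signal was modest. The median log2 ratio of H3K18cr to input at the 30 TSS peaks was 1.21 in library 1 and 1.43 in library 2, against 1.36 and 1.68 at all 11435 H3K18cr TSS peaks. The lowest mean ratio was that of Pcna (0.60 and 0.75), with 74.7 and 122 scaled reads against 49.0 and 71.7 in the inputs, although Pcna had the second highest RNA level per kb of these genes. Pold3 had the highest (1.99 and 1.84). Tyms had 76.3 and 112 scaled reads against 33.0 and 35.1 (1.19 and 1.64), and Gmnn 183 and 253 against 77.0 and 82.4 (1.24 and 1.61). No test of these ratios was run. For H3K4me3 the medians of the 46 TSS peaks were 1.72, 2.46 and 2.83, and those of all TSS peaks 1.77, 2.50 and 2.88.

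The other lists were counted in the same way in colon, where 71.6% of the protein-coding genes with a count had an H3K18cr TSS peak. An H3K18cr TSS peak was listed for 19 of 27 further replication genes, among those without one Pola1, Chaf1a, Chaf1b and Uhrf1. It was listed for 13 of 15 further genes of nucleotide supply (not for Dut and Nme1), and for 20 of 20 genes that control entry into S phase. All of these had an H3K4me3 TSS peak.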

How the data were processed

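The 46 genes, the other lists and the tests were chosen with earlier results of these data known. The authors trimmed reads with Trim Galore, aligned ChIP reads with Bowtie2, removed duplicates and called peaks with MACS in SEQMONK. Mouse RNA reads were aligned with HiSat2. The submitters' processing notes list Trim Galore 0.4.2, TopHat2 2.0.12 and Bowtie2 2.2.5. Settings for human RNA and the use of strand are not given in the sources used here. RNA values were deposited as raw counts per gene. Colon ChIP values were deposited as signal, reads per peak scaled by 1 factor per library to the largest library. HCT116 ChIP values were deposited as log2 of such scaled reads, with 0.9 read entered where a peak had none.

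Genes were matched to GENCODE 44 (GRCh38) and M21 (GRCm38). RNA was tested with edgeR 4.0.16 (TMM, filterByExpr, two-sided quasi-likelihood test) and peaks with limma 3.58.1 on the log2 values (mean of at least 10 scaled reads), each over the whole table with Benjamini-Hochberg adjustment and a threshold of 0.05. DESeq2 1.42.0 and the other alternatives are given in the closing section. Deviations of same-numbered HCT116 RNA libraries correlated at 0.23, 0.15, 0.43 and 0.46, so the numbers were treated as pairs (DMSO 2 with MS275 4 correlated at 0.24 and DMSO 4 with MS275 2 at 0.22, above the 0.15 of pair 2), and values with the replicate block stand beside the RNA results. For the marks the correlations were 0.11, 0.07 and 0.23 (H3K18cr) and -0.21, 0.05 and -0.13 (H3K18ac), so the fits without a block came first. The study tested the marks with a paired test, and counts with the block stand beside them. A count test on the reads recovered from the log2 values (100% whole within 0.02 read) called 10108 peaks for H3K18cr and 6653 for H3K18ac in edgeR. The study describes the HCT116 RNA libraries as biological replicates. Where separate cultures are not stated, p-values measure only the spread between libraries. Scripts were tested on simulated data. All library totals are counts of reads, and their size sets the precision of low values.

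Values in every library were given for PCNA, MCM2, CDC6, CDT1, GMNN, RRM1, RRM2, TYMS and RNASEH2A, and for the largest changes among genes that passed with the block. Peaks were named by the 3 largest falls and rises per mark, the widest peak and the TSS peaks of those genes. FEN1, RFC2, GINS2, GINS4 and CLSPN in the RNA or peak results, and the colon genes described singly, were otherwise chosen after their values were seen.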

Additional observations from a re-analysis of the deposited data

Results flagged for a closer look

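In the MS275 group MCM2 RNA was 305 CPM in library 1 and 201 to 217 CPM in the other 3 libraries, a gap that is wide for a group of 4. RRM2 RNA in the same library was 676 CPM, against 344 to 384 CPM in the other 3. In all 26 groups of 4 libraries were examined in this way (13 named genes with each treatment) and 2 stood out, where chance gives about 1 in 20. DMSO library 1 was also the highest of its group for both genes, with 390 and 632 CPM.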

How the results depend on the processing

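For HCT116 RNA, 0 of the 46 genes passed without the block in edgeR under every scaling, filter and left-out library tried and in DESeq2. With the replicate block 12 passed, with DESeq2 and the block 13, and with the block and library totals (a setting chosen after seeing the data) 11, against 14.4%, 10.5% and 14.1% of all genes called in either direction. With 1 pair left out from the fit with the block, 7, 6, 16 and 6 passed (without pairs 1 to 4), and with 1 library left out and no block 0. The RNA changes that turned direction ran from -0.17 to 0.16 (CDC6), -0.18 to 0.23 (GMNN), -0.31 to 0.19 (RRM2) and -0.28 to 0.026 (RNASEH2A) when single libraries were left out, and GMNN was at -0.056 and -0.020 with the block and pair 2 or 3 left out. Without division by length the median percentiles were 83.9 in HCT116 and 52.2 in colon, and leaving out 1 mouse gave 63.1 to 65.1.

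For H3K18cr, 47 of the 64 peaks fell, with TMM 31 (13.0% of all peaks called in either direction), with DESeq2 25 (8.44%), with the replicate block 49 (26.6%) and with left-out libraries 35 to 52 (14.8% to 31.5%). The TSS median was -0.54 with TMM and -1.16 with the scaled input subtracted. For H3K18ac, 46 fell, with the replicate block 12, all among the 46 TSS peaks (2.03% of all peaks called in either direction), and with left-out libraries 16 to 51 (3.59% to 23.2%). TMM with the block, also chosen after seeing the data, gave 43 calls for H3K18cr, 42 lower and 1 higher (the second MCM3 peak, 0.68, adjusted p = 0.0154, limma), and 45 lower for H3K18ac (17.8% and 15.4% of all peaks fell). TMM turned the sign of 2 of the 64 peaks in H3K18cr and of 6 in H3K18ac, and 0 of these passed. In H3K18ac the RFC1 peak was at 0.21 with TMM, with or without the block, and 0.21 with DESeq2, and ran from -0.12 to 0.043 over left-out libraries. The fourth RFC3 peak was at 0.18 with TMM, with or without the block, 0.025 with edgeR and 0.25 with DESeq2, and ran from -0.27 to 0.14. In H3K18cr the third RFC3 peak ran from -0.0026 to 0.46 and the first CDC6 peak from -0.078 to 0.30. In colon 14 genes, not 30, had an H3K18cr TSS peak when only peaks above the median ratio to input counted. Such a cut removes many peaks of any set of genes by construction, and no share over all genes was set beside it. The causes were not tested. Depth limits the peaks with few reads, and depth outside peaks is not known.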
